A study of Mus musculus with 6 samples.

Results

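The cytosolic ribosomal proteins are the protein subunits of the ribosome that works outside mitochondria. Their genes were taken by symbol from the protein-coding genes of mouse assembly GRCm38: symbols that start with Rpl or Rps followed by a digit, and Rplp0, Rplp1, Rplp2 and Rpsa, with the Rps6k kinases left out. This gave 91 genes of 21887 on chromosomes 1 to 19, X and Y, 56 named for the large and 35 for the small subunit. Of the 91, 77 carry the name of a subunit, 8 are paralogous copies (Rpl3l, Rpl7l1, Rpl10l, Rpl22l1, Rpl32l, Rpl36al, Rpl39l and Rps27l), 5 are named as copies of retrogene type (Rpl31-ps12, Rpl34-ps1, Rpl37rt, Rps27rt and Rps23rg1) and 1, Rps19bp1, encodes a binding partner of Rps19.

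Open chromatin was mapped by ATAC-seq, in which the transposase Tn5 cuts accessible DNA and tags it for sequencing, in islets of 16-week-old mice in 3 groups of 2 libraries. The control-GFP group is labelled wildtype and received the adenovirus Ad-GFP. The knockout-GFP group is βRicKO, a beta-cell deletion of Rictor by its label and the series title, and received Ad-GFP. The knockout-Acsl4 group is βRicKO and received Ad-Acsl4, which drives Acsl4, a ligase that activates long-chain fatty acids. All 6 libraries thus carry an adenovirus, applied for 48 h ex vivo, and about 50 whole islets, which hold cells other than beta cells, entered each library. No label names the promoter behind the deletion, or whether a group's 2 libraries stem from different mice.

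The ribosome is built in the nucleolus from RNA and one copy of most of these proteins, and rapidly growing and secreting cells such as beta cells devote much of their transcription to it. Ribosomal protein genes are short, housekeeping genes with strong promoters, and most of their mRNAs begin with a run of pyrimidines, the TOP motif, through which mTOR complex 1 and the RNA-binding protein Larp1 control translation. Rictor belongs to mTOR complex 2, which acts on Akt and related kinases.

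A gene was called marked in a library when a peak of that library overlapped the 1000 bp on either side of one of its ends, the gene-end window. Each library has its own list of peaks with a score for each peak, so a mark says that a peak was called there and is not a level of accessibility. In bulk islets, fewer cells with an open site and less opening per cell cannot be told apart.

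The 6 lists differ before any gene is considered. They hold 525 to 5874 peaks, and the share of peaks at gene ends was 70.9% in control-GFP 1, 67.2% in knockout-GFP 1 and 75.5% in knockout-GFP 2. It was 21.7% in control-GFP 2, 35.8% in knockout-Acsl4 1 and 5.29% in knockout-Acsl4 2. The last of these is the longest list, with 5874 peaks of median score 1.54, against median scores of 2.77 to 6.26 in the other libraries. One control-GFP library and both knockout-Acsl4 libraries therefore stand apart from the other 3, and the results below that rest on them are given with and without them. Of 12 genes of beta cell identity, Mafa and Nkx6-1, transcription factors of mature beta cells, were marked, both in control-GFP 1 and in knockout-GFP 2. That was 16.7% of the list in each, near the 16.7% and 17.3% of all protein-coding genes. No other gene of the list was marked in any library, the insulin genes included. None of 7 genes of other islet endocrine cells and none of 8 endothelial, stromal and immune genes was marked, and 1 of 6 acinar and ductal genes was marked, in knockout-GFP 2.

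RefSeq promoter sequences of GRCm38 were at hand for 70 of the 91 genes, and 8 are shown because the results turn on these genes: 6 of the 7 genes marked in 3 libraries, Rpl15, with the highest mean score percentile, and Rplp0, the only gene with a mark in both knockout-GFP and neither control-GFP library. Each line runs 5′ to 3′ on the gene's strand from 120 bases before to 30 bases from the annotated start of transcription. Capitals mark the ETS core CCGGAAG, the SP1 core GGGCGG and the TATA box TATAAA, on either strand, and a pyrimidine run near the start that opens with C. Letters that belong to more than 1 of these are in a single capital run.
Rpl15 (chr14:18270957-18271106, minus strand): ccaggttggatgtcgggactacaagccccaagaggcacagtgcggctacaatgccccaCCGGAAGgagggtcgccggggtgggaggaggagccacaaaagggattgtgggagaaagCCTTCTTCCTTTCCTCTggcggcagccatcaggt
Rpl27a (chr7:109519075-109519224, plus strand): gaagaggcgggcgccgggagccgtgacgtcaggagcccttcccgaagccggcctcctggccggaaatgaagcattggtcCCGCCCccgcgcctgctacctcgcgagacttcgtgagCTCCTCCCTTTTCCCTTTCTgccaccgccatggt
Rpl36al (chr12:69184038-69184187, minus strand): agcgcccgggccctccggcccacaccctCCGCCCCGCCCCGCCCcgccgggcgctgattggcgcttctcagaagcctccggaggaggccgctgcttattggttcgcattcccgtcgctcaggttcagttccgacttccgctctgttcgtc
Rpl37 (chr15:5116493-5116642, plus strand): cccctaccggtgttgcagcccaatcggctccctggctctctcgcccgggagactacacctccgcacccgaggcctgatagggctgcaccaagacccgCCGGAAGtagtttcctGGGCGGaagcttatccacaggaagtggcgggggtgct
Rplp0 (chr5:115559347-115559496, plus strand): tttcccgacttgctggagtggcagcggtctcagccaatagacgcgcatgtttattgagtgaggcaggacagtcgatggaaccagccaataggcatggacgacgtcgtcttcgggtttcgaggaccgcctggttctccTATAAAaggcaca
Rps12 (chr10:23787180-23787329, minus strand): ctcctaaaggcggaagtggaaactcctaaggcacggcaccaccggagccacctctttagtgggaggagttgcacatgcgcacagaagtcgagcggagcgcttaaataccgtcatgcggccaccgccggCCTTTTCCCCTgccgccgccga
Rps19 (chr7:24884472-24884621, plus strand): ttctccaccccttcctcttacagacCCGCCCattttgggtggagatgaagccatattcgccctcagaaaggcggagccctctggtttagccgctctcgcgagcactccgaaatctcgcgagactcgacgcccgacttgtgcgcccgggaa
Rps21 (chr2:180257259-180257408, plus strand): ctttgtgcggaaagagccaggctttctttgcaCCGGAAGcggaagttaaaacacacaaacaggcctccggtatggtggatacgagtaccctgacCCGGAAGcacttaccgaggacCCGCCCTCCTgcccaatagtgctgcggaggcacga

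The printed stretches differ in what they hold. The ETS core is in those of Rpl15 and Rpl37, and Rps21 has it at 2 places. Rps12 has only the pyrimidine run in capitals, and Rpl36al only SP1 cores. Rplp0, which encodes the base of the ribosomal stalk that recruits elongation factors, has only TATAAA. That match lies downstream of the annotated start, at base 18 counted from it, and not before it. A match is a description of these letters and is not a binding site.

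Over all 250 bases before and 50 after the start, 25 of the 70 ribosomal protein promoters (35.7%) held the ETS core, against 11.9% of 17486 protein-coding promoters. The core was in 14 of the 31 promoters of marked genes (45.2%) and in 11 of the 39 of unmarked genes (28.2%), beside 19.8% of the promoters of all marked genes. The YY1 core AAGATGGCG was in 5.71% against 1.92%, the SP1 core in 57.1% against 46.3%, the NRF1 core GCGCATGCG in 2.86% against 2.41%, and TATAAA in 12.9% against 13.3%. Marked ribosomal protein genes were also set beside all marked genes. The YY1 core was then in 6.45% against 3.74% and the SP1 core in 64.5% against 72.1%. The NRF1 core was in 3.23% against 5.33%, and TATAAA in 9.68% against 5.39%. A TOP-like start, here a C at the annotated start followed by at least 4 pyrimidines, was found in 14 of the 70 (20%) and in 2.16% of all protein-coding promoters. When the run could begin within 10 bases of the start the shares were 57.1% and 31.1%. Among marked ribosomal protein genes 5 of 31 (16.1%) had a TOP-like start, and among unmarked ones 9 of 39 (23.1%). The median promoter held 21 CpG dinucleotides, against 13 over all protein-coding genes and 24 over all marked genes. Its GC content was 57.0%, against 56.3% over all protein-coding genes and 63.0% over all marked ones, and 59.0% in marked ribosomal protein genes.

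Ribosomal protein genes had gene-end peaks in 3 of the 6 libraries and none in the other 3. In control-GFP 1, 21 of 91 were marked (23.1%, exact 95% Clopper-Pearson interval 14.9 to 33.1%), beside 16.7% of all protein-coding genes. In knockout-GFP 1, 14 were marked (15.4%, 8.67 to 24.5%), beside 8.2% of all genes. In knockout-GFP 2, 30 were marked (33.0%, 23.5 to 43.6%), beside 17.3%. The shares of ribosomal protein genes were above the shares of all genes in these 3 libraries. In control-GFP 1 the interval included the share of all genes. Its lower limit was just above that share in knockout-GFP 1 (8.67% against 8.2%) and above it in knockout-GFP 2 (23.5% against 17.3%). In the better 50% of each list, 5, 6 and 14 of 91 were marked in these libraries, beside 9.41%, 4.5% and 9.19% of all genes. The share in control-GFP 1 was then below that of all genes. These intervals cover counting error over genes only and do not compare the groups.

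In control-GFP 2, knockout-Acsl4 1 and knockout-Acsl4 2, 0 of 91 were marked, which allows a share of up to 3.97% by the same interval. The share of all protein-coding genes was 2.0%, 1.02% and 1.58% in these libraries, so at this number of genes 0 does not differ detectably from it. The nearest peak to any ribosomal protein gene end was 18177 bp away in control-GFP 2, at Rpl28. It was 3158 bp away in knockout-Acsl4 1, at Rpl24, and 2566 bp away in knockout-Acsl4 2, at Rps29. No gene thus lay just outside the 1000 bp window in any of these 3 lists.

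**Figure D1:**
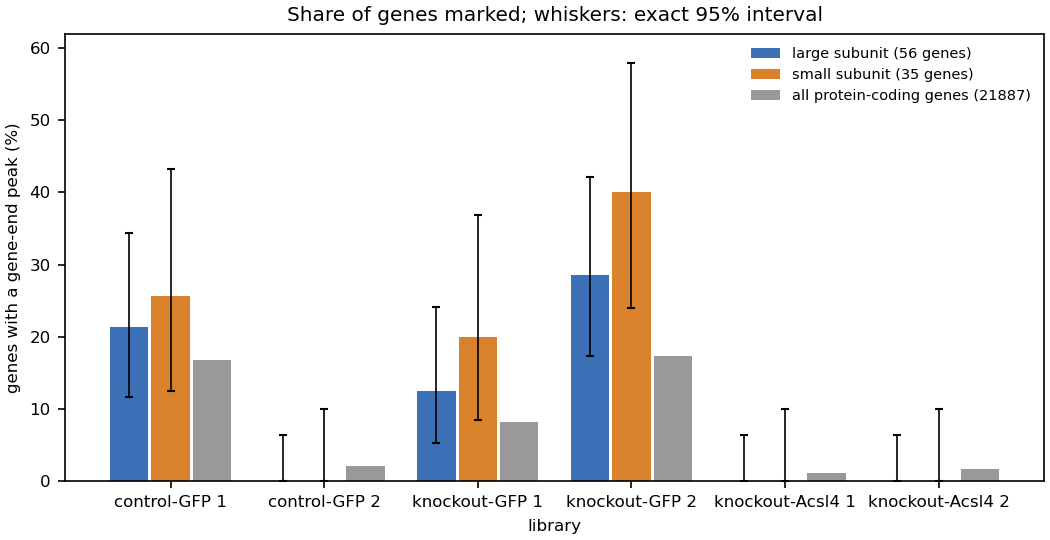
Share of large and small subunit genes with a gene-end peak (y axis, %) in each of the 6 libraries (x axis), with all protein-coding genes in grey and exact 95% intervals as whiskers. Small subunit bars stand above large subunit bars in control-GFP 1, knockout-GFP 1 and knockout-GFP 2 with overlapping whiskers, and both are at 0 in the other 3 libraries.

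The small subunit had the higher share in each of the 3 libraries with marks, within overlapping intervals. In control-GFP 1, 12 of 56 large subunit genes (21.4%, 11.6 to 34.4%) and 9 of 35 small subunit genes (25.7%, 12.5 to 43.3%) were marked. In knockout-GFP 1 the counts were 7 (12.5%, 5.18 to 24.1%) and 7 (20%, 8.44 to 36.9%). In knockout-GFP 2 they were 16 (28.6%, 17.3 to 42.2%) and 14 (40%, 23.9 to 57.9%). The large minus small difference was thus -4.29, -7.5 and -11.4 percentage points. These differences depended on which genes entered. Without the copies and Rps19bp1 they were -9.47, -9.54 and -14.7 points. With only annotated starts of transcription they were 1.43, -9.29 and -3.57 points, a setting in which the genes without a promoter entry count as unmarked. Among the 43 large and 27 small subunit genes with an entry they were -0.345, -8.27 and -3.1 points by gene ends, and 1.98, -12 and -4.48 points by starts. In control-GFP 1 the direction thus turned under this choice, and in knockout-GFP 2 the difference shrank. With every list shortened to its best 525 peaks, no ribosomal protein gene was marked in either of these libraries, so the difference of 0 follows from the absence of marks. In knockout-GFP 1 the difference was then -8.57 points, with 0 large and 3 small subunit genes marked.

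Over the 6 libraries, 41 ribosomal protein genes (45.1%; 23 large and 18 small) were marked in at least 1, beside 24.5% of all genes. In at least 2 libraries 17 were marked (18.7%; 9 large and 8 small), beside 13.9%. In at least 3 libraries 7 were marked (7.69%; 3 large and 4 small), beside 6.52%, and in at least 4 none was, beside 1.62%. Most of the excess over all genes was therefore in genes marked once, and the share in at least 3 libraries was near that of all genes.

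The 7 genes marked in 3 libraries were marked in the same 3, control-GFP 1, knockout-GFP 1 and knockout-GFP 2. Among them are the small subunit genes Rps12, Rps19 and Rps21, the large subunit genes Rpl27a and Rpl37, and Rpl36al, a copy of Rpl36a. For each of the 7, a stretch was covered by the peaks of all 3 libraries. It measured 368 bp at Rps19 (chr7:24884028-24884395), 193 bp at Rps21 (chr2:180257221-180257413) and 158 bp at Rps12 (chr10:23787276-23787433). It measured 148 bp at Rpl37 (chr15:5116375-5116522), 124 bp at Rpl36al (chr12:69184042-69184165) and 113 bp at Rpl27a (chr7:109519047-109519159). The shared stretches of Rps21, Rpl37, Rpl36al, Rpl27a and Rps12 overlap the sequences printed above, and that of Rps19 lies wholly upstream of its printed sequence.

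Scores were compared only within a list, as the percentile of a peak among all peaks of its library, because the score follows depth, and depth is not stated for any library. A higher percentile is a higher score. Rps19, a small subunit protein mutated in Diamond-Blackfan anaemia, had scores of 10, 7.56 and 7.34 in control-GFP 1, knockout-GFP 1 and knockout-GFP 2, at the 76.2, 82.5 and 59.7 percentiles. It lay above the middle of every list in which it was marked.

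Rps21 was less even: its scores were 2.67, 8.52 and 6.61, at percentiles 12.3, 87.1 and 52.7, so it was among the lowest peaks of control-GFP 1 and the highest ribosomal protein peak of knockout-GFP 1. Rps12, a small subunit protein, had scores of 5.56, 6.21 and 4.89 at percentiles 46.8, 74.1 and 35.6, and a further peak at percentile 16.6 in control-GFP 1. These 2 genes stood higher in knockout-GFP 1 than in either of the other libraries.

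Rpl36al went the other way between the knockout-GFP libraries, with scores of 9.91, 2.71 and 10.3 at percentiles 75.9, 19.6 and 77.5. Rpl27a, also of the large subunit, had scores of 5.24, 2.45 and 8.7 at percentiles 44.6, 16.9 and 68.6. Rpl37, a zinc-binding large subunit protein, had scores of 4.76, 5.89 and 5.08 at percentiles 39.1, 70.8 and 38.0. The 2 knockout-GFP libraries thus ranked these 3 genes in different orders, Rpl37 first in knockout-GFP 1 and last in knockout-GFP 2.

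**Figure D2:**
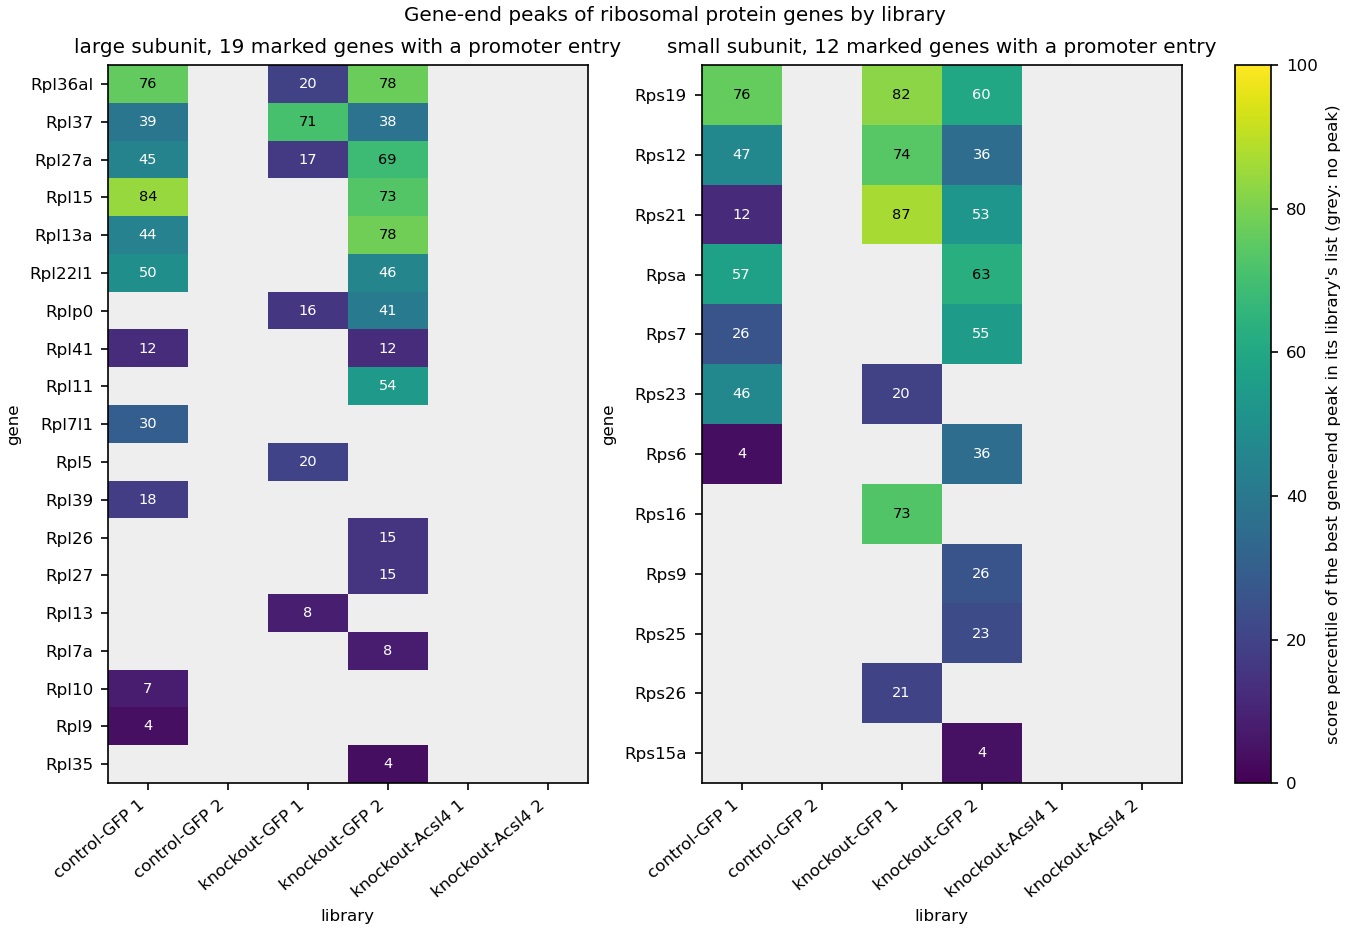
Score percentile of the best gene-end peak (colour and number, 0 to 100 within each list) of the 31 marked ribosomal protein genes with a promoter entry, of 41 marked in all (rows, large subunit left and small subunit right), in the 6 libraries (columns), grey where no peak was called. Marks fall in control-GFP 1, knockout-GFP 1 and knockout-GFP 2, and 6 of the genes shown have a mark in all 3.

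Another 10 genes were marked in 2 libraries. For 8 of them these were control-GFP 1 and knockout-GFP 2, among them Rpl13a, Rpl15, Rpl22l1, Rpl41, Rps6, Rps7 and Rpsa. Rps23, part of the decoding centre, was marked in control-GFP 1 and knockout-GFP 1, and Rplp0 in both knockout-GFP libraries. Rpl15, a core protein of the large subunit, had scores of 12.7 and 9.43 in control-GFP 1 and knockout-GFP 2, at percentiles 84.4 and 73.1, and its mean of 78.8 was the highest of the 17 genes marked at least in 2 libraries. Rpl13a, which also acts outside the ribosome as part of a translational silencing complex, had scores of 5.2 and 10.6 at percentiles 44.2 and 78.5. Both were among the higher peaks of knockout-GFP 2 and had no peak in knockout-GFP 1.

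Rpsa, the small subunit protein also known as the laminin receptor, had scores of 6.71 and 7.77 at percentiles 57.4 and 63.2. Rps6, the substrate of the S6 kinases, was at percentiles 3.79 and 35.6, and Rps7 at 26.0 and 55.0. Among the stalk proteins, Rplp0 had scores of 2.35 and 5.44 in knockout-GFP 1 and knockout-GFP 2, at percentiles 15.8 and 41.1. Rplp1 and Rplp2, the acidic proteins that form the tip of the stalk, had no mark in any library.

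Rpl41, the smallest protein of the ribosome, was at percentile 12.5 in both control-GFP 1 and knockout-GFP 2, but with different peaks. The control-GFP 1 peak lay at its start and the knockout-GFP 2 peak beyond its transcript end. The latter also lay in a gene-end window of Zc3h10, and whether that is the start or the transcript end of Zc3h10 was not read. For the other 16 of the 17 genes marked more than once, the peaks overlapped between every pair of libraries that had one, which made 30 of 31 pairs overlapping by at least 1 bp.

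Of the remaining 24 genes, marked once, 14 were marked in knockout-GFP 2, 5 in control-GFP 1 and 5 in knockout-GFP 1. The knockout-GFP 2 set includes Rpl11, which binds 5S RNA and Mdm2, Rps27a, made as a fusion with ubiquitin, and Rpl7, Rpl7a, Rpl23a, Rpl26, Rpl27, Rpl35, Rps9, Rps15a, Rps20, Rps25 and Rps29. The control-GFP 1 set is Rpl7l1, Rpl9, Rpl10, Rpl39 and Rps14. The knockout-GFP 1 set is Rpl5, which binds 5S RNA beside Rpl11, and Rpl13, Rpl36, Rps16 and Rps26. Genes marked once stood lower in their lists: their median percentile was 18.1 in control-GFP 1, 20.1 in knockout-GFP 1 and 19 in knockout-GFP 2. The 7 genes marked in 3 libraries had medians of 46.8, 74.1 and 53.5. Over all protein-coding genes the medians for genes marked once were 32.9, 32.9 and 33.0, and for genes marked in 3 libraries 67.5, 56.9 and 68.6, so the same order held there.

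The copies gave 3 of the 41 marked genes. Rpl36al and Rpl22l1, a paralogue of Rpl22, were marked in 3 and 2 libraries, and Rpl22l1 was at percentiles 49.9 and 45.7 in control-GFP 1 and knockout-GFP 2. Rpl7l1 was at percentile 29.7 in control-GFP 1. Rpl22 itself had no mark within 1000 bp, and neither did Rpl36a. The other 5 paralogous copies, the 5 retrogene copies and Rps19bp1 had none. Processed pseudogenes share sequence with these genes and can draw their reads. Among 318 annotated Rpl and Rps pseudogenes, 1 was marked in control-GFP 1, 1 in knockout-GFP 1 and 2 in knockout-Acsl4 2 (at most 0.629%).

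The 50 genes with no mark in any library are 33 large and 17 small subunit genes. Besides those already named, the large subunit ones were Rpl3, Rpl4, Rpl6, Rpl8, Rpl10a, Rpl12, Rpl14, Rpl17, Rpl18, Rpl19, Rpl21, Rpl23, Rpl24, Rpl28, Rpl29, Rpl30, Rpl31, Rpl32, Rpl34, Rpl35a, Rpl37a and Rpl38. The small subunit ones included Rps2, Rps3, Rps3a1, Rps4x, Rps10, Rps13, Rps15, Rps18, Rps24, Rps27 and Rps28. Many of these encode core subunits, such as Rpl3 and Rpl4, the long-armed proteins near the peptidyl transferase centre, and Rps3 at the mRNA entry. No call in these short lists does not show closed chromatin. Rpl22, Rpl19 and Rps2 were marked in knockout-GFP 2 when annotated starts of transcription were used in place of the gene ends. Under that setting Rpl22 was also marked in control-GFP 1, and the copy Rps27l in knockout-GFP 1. For Rpl19, Rps2 and Rps27l the annotated start lies 4707, 1942 and 1462 bp inside the gene.

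Peaks sat close to the start of transcription. The 67 pairs of a gene and a peak had a median distance of 85 bp from the peak's centre to the nearest gene end and a maximum of 446 bp, and 43 of the peaks covered the end itself. For the 54 pairs whose gene had a known strand, the nearest end was the start in 53, and the exception was the Rpl41 peak of knockout-GFP 2. The median centre lay 84 bp upstream of the start, with 42 centres upstream and 11 downstream, and 34 peaks covered the start. The median centre stood at -152 bp in control-GFP 1, -94 bp in knockout-GFP 1 and -55 bp in knockout-GFP 2.

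**Figure D3:**
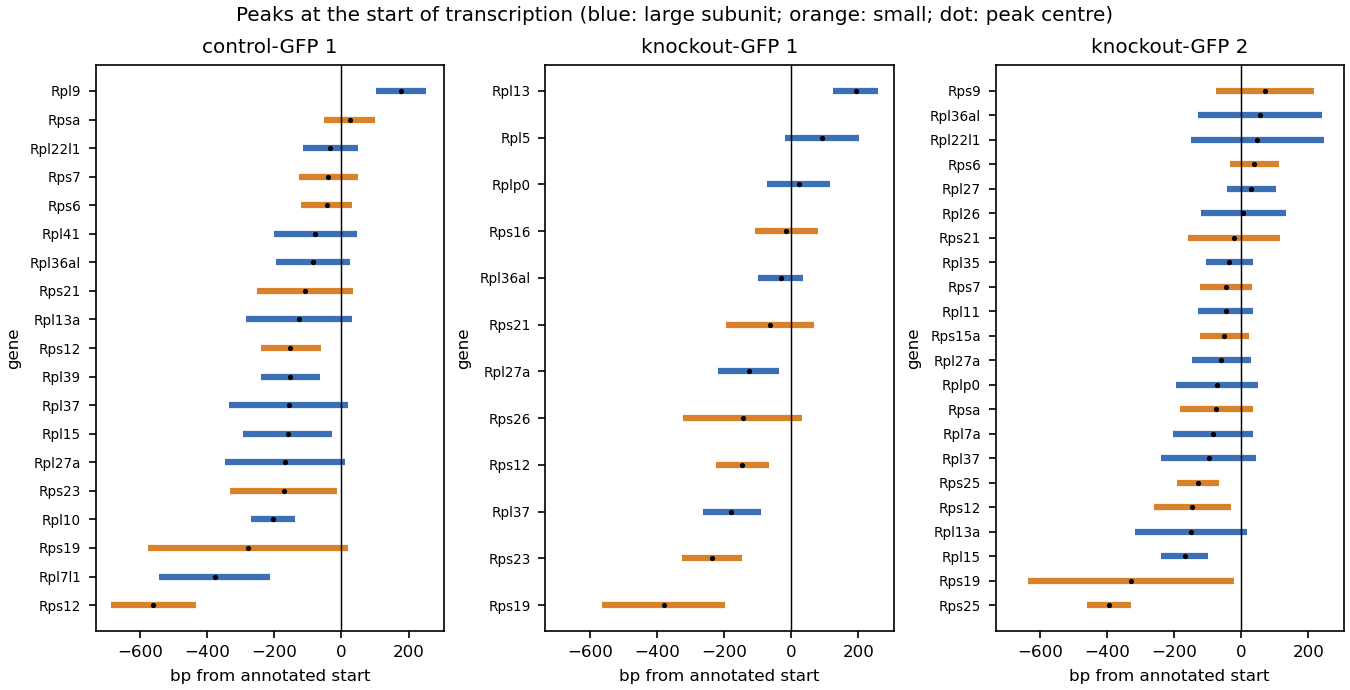
Extent of each gene-end peak (bars, blue for large and orange for small subunit, dot at the centre) relative to the annotated start of transcription (x axis, bp) for genes with a known strand (y axis) in the 3 libraries with marks. Most bars cover or lie just upstream of the start. Among those that reach farther upstream are the bars of Rps19 and the further Rps12 peak of control-GFP 1.

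Within their lists, ribosomal protein peaks had low scores. In control-GFP 1 the 22 peaks had a median percentile of 37.9 (3.79 to 84.4), beside 54.0 over all gene-end peaks of the list. In knockout-GFP 1 the 14 peaks had a median of 20.4 (7.32 to 87.1), beside 53.2, and in knockout-GFP 2 the 31 peaks had a median of 41.1 (3.83 to 80.4), beside 51.9. In each of the 3 libraries 3 peaks were over the 75th percentile, which is 13.6%, 21.4% and 9.68% of the ribosomal protein peaks, against 26.7%, 24.3% and 24.8% of all gene-end peaks. Under the 25th percentile were 7, 8 and 10 (31.8%, 57.1% and 32.3%), against 21.2%, 20.8% and 22.2%. In knockout-GFP 1 the other 6 peaks, among them those of Rps21, Rps19, Rps12, Rps16 and Rpl37, stood at percentile 70.8 or higher, with none between. Median widths were 240, 188 and 203 bp, beside 253, 210 and 222 bp over all gene-end peaks.

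**Figure D4:**
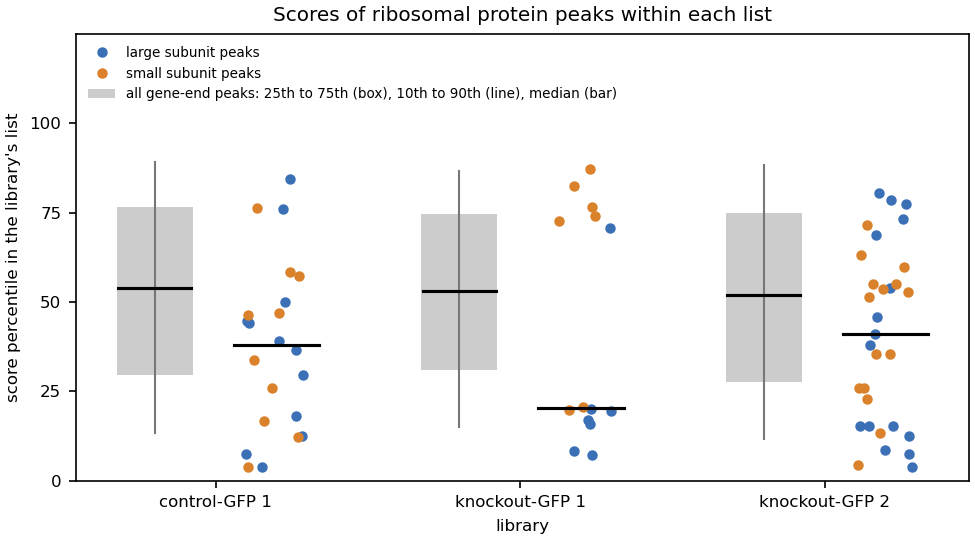
Score percentile within the library's list (y axis) of each ribosomal protein peak (points, blue for large and orange for small subunit, black bar at their median) beside the distribution of all gene-end peaks (grey) in the 3 libraries with marks (x axis). The medians of 37.9, 20.4 and 41.1 lie below those of all gene-end peaks.

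Libraries shared fewer of these genes where scores were low. Of the 14 genes marked in knockout-GFP 1, 8 (57.1%) were also marked in knockout-GFP 2, which is 26.7% of the 30 marked there. Over all protein-coding genes the same shares were 80.6% and 38.2%. Taken by score, 5 of the 6 genes in the upper 50% of the knockout-GFP 1 list by score were marked again in knockout-GFP 2 (83.3%, beside 89.0% of all genes), and 3 of the 8 in the lower 50% (37.5%, beside 70.4%). Control-GFP 1 and knockout-GFP 2 shared 15 genes, 71.4% of the former and 50.0% of the latter, beside 69.6% and 67.1% over all genes. Control-GFP 1 and knockout-GFP 1 shared 8, 38.1% and 57.1%, beside 37.2% and 75.7%.

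The comparison of βRicKO with control islets under Ad-GFP asks what loss of Rictor changes. Rplp0 alone had a mark in both knockout-GFP and neither control-GFP library, 1 of 91 genes beside 1.04% of all protein-coding genes. No ribosomal protein gene had a mark in both control-GFP and neither knockout-GFP library, beside 0.0914% of all genes. The Rplp0 peaks ran from 115559396 to 115559584 on chromosome 5 in knockout-GFP 1 and from 115559272 to 115559516 in knockout-GFP 2, with widths of 189 and 245 bp. Of the 8 ribosomal protein genes marked in both knockout-GFP libraries this is 12.5%, beside 15.7% of all genes marked in both, and the other 7 were marked in control-GFP 1 as well. With 2 libraries a group, the smallest two-sided exact permutation p for a single gene is 0.333, so no p-value was computed.

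That count rests on single libraries. Without control-GFP 1, all 8 genes had the pattern, since control-GFP 2 has no ribosomal protein mark, beside 5.6% of all protein-coding genes, and without control-GFP 2 it stayed at Rplp0, beside 1.08%. Without knockout-GFP 1 it was 15, beside 5.54% of all genes, and without knockout-GFP 2 it was 6, beside 1.94%. In the better 50% of each list the count was again 1, beside 0.644% of all genes. The gene was then Rps21, whose control-GFP 1 peak at percentile 12.3 dropped out, as the Rplp0 peaks did. The genes marked in control-GFP and in neither knockout-GFP library numbered 5 when control-GFP 2 was left out, beside 4.4% of all genes.

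The comparison of Ad-Acsl4 with Ad-GFP in βRicKO islets asks what added Acsl4 changes. All 8 genes marked in both knockout-GFP libraries (8.79% of the 91, among them Rpl27a, Rpl36al, Rpl37, Rplp0, Rps12, Rps19 and Rps21) were marked in neither knockout-Acsl4 library, beside 5.79% of all genes. As a share of the genes marked in both knockout-GFP libraries this is 100%, beside 87.6% of all such genes. None was marked in both knockout-Acsl4 and neither knockout-GFP library, beside 0.00914%. Both knockout-Acsl4 lists had few peaks at gene ends of any kind, 188 and 311, and the part of this in the result was not tested. Since neither of them marked any ribosomal protein gene, the 100% follows from the 0 counts. The count was 8 without knockout-Acsl4 1 or without knockout-Acsl4 2, beside 6.39% and 5.98% of all genes. In the better 50% of each list it was 3 of 91, Rps19 and Rps21 among them, near the 2.97% of all genes. With all lists shortened to 525 peaks it was 0, beside 0.475% of all genes.

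Between knockout-Acsl4 and control-GFP no ribosomal protein gene had either pattern, beside 0.00457% of all genes marked in both knockout-Acsl4 and neither control-GFP library, and 1.32% the other way round. Without control-GFP 2, the 21 genes marked in control-GFP 1 all had the latter pattern, beside 15.3% of all genes. The 3 comparisons share their groups by pairs, so their counts are not independent of each other.

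Features of the genes that the choice by symbol did not use were set beside the marks. Ribosomal protein genes were short, with a median length of 3.17 kb against 17.2 kb over all protein-coding genes, and marked and unmarked ones had medians of 2.97 and 3.7 kb. Many host small nucleolar RNAs, which guide the modification of ribosomal RNA, within their span. In 30 of 91 (33.0%) at least 1 lay wholly inside the gene, beside 1.7% of all genes. Intron positions were not read. Of the 30 hosts 15 were marked (50.0%), and of the 61 others 26 (42.6%). Rpl13a and Rps12 are among the marked hosts, the former with Snord32a, Snord33, Snord34 and Snord35a. By chromosome, 14 of the 91 lie on chromosome 7, and 8 of these were marked, beside 45.1% of all 91. Chromosomes 2 and 12 had higher shares, each with 3 of 4 marked.

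For 10 of the 41 marked genes (24.4%) a peak also lay in the gene-end window of another protein-coding gene, beside 31.5% of all marked genes. The pairs are Rpl36al with Mgat2, Rpl15 with Nkiras1, Rpl37 with Card6, Rpl9 with Lias, Rpl36 with Micos13, Rpl7 with Rdh10, Rpl7a with Med22, Rps25 with Trappc4, Rpl41 with Zc3h10 and Rps27a with Clhc1. At these 10 the mark cannot be given to the ribosomal protein gene alone, and 3 of them, Rpl36al, Rpl15 and Rpl37, are among those named above for their recurrence or score.

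The most similar gene sets were read in the same way. Of 78 mitochondrial ribosomal protein genes, whose products form the ribosome inside mitochondria, 32 (41.0%) were marked in at least 1 library and 11 (14.1%) in at least 3. Of 49 translation initiation factor genes, 27 (55.1%) were marked in at least 1 and 8 (16.3%) in at least 3. The shares of all protein-coding genes were 24.5% and 6.52%. The cytosolic set had 45.1% and 7.69%, so it was marked about as often as the mitochondrial set and had a lower share in at least 3 libraries, a difference that was not tested. Some mitochondrial ribosomal protein genes were also marked in libraries where the cytosolic ones were not. There were 5 in control-GFP 2 (6.41%, beside 2.0% of all genes) and 2 in knockout-Acsl4 1 (2.56%, beside 1.02%). In knockout-Acsl4 2 there was 1 (1.28%), below the 1.58% of all genes. Mrpl17, Mrpl47, Mrps14 and Mrps18b were marked in 4 libraries. Among initiation factors Eif2s1, the alpha subunit of eIF2, was marked in 4, and Eif4a1, Eif4b and Eif5 were among those marked in 3.

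**Figure D5:**
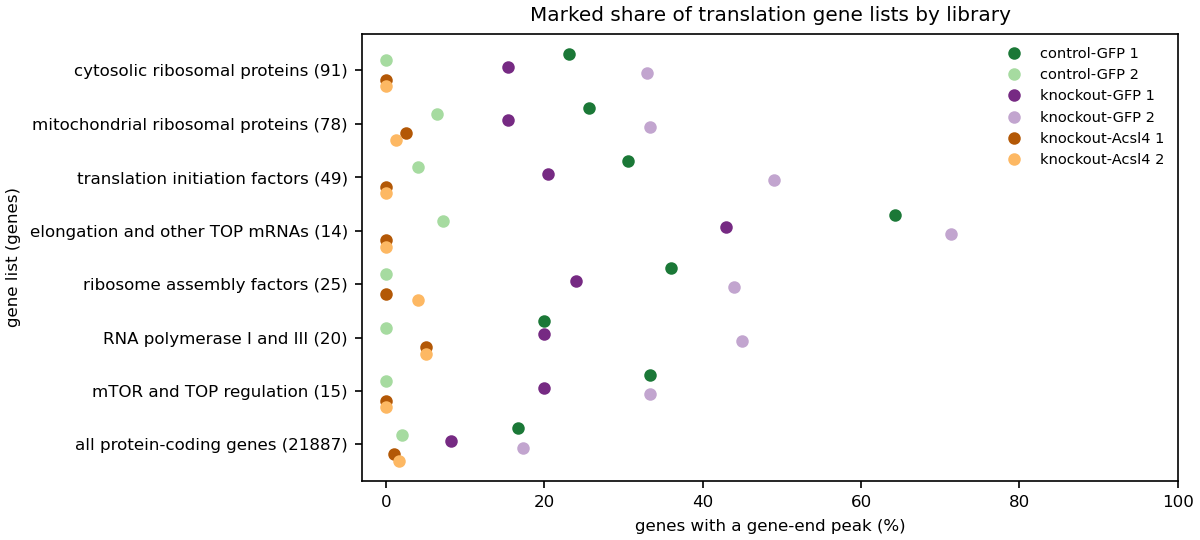
Share of genes with a gene-end peak (x axis, %) for cytosolic ribosomal proteins, 6 other lists of the translation machinery and all protein-coding genes (y axis, number of genes in parentheses), with a coloured point for each of the 6 libraries. In the 3 libraries with ribosomal protein marks the list of elongation factors and other TOP mRNAs is farthest to the right.

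Other parts of the pathway were read from lists of known genes. Fau and Rack1, ribosomal proteins whose symbols fall outside the rule, were marked in no library. Over all protein-coding genes 24.5% were marked in at least 1 library and 6.52% in at least 3. Of 14 genes of elongation factors and other TOP mRNAs, 13 (92.9%) were marked in at least 1 library and 6 in at least 3. Hnrnpa1 was marked in 4 and Eef1g, Eif4b, Npm1, Pabpc1 and Tpt1 in 3. Of 25 ribosome assembly factors 16 (64.0%) were marked, with Fbl, the methyltransferase of ribosomal RNA, Ncl and Rrp9 in 3 libraries. Of 20 subunits and factors of RNA polymerases I and III, which make ribosomal RNA, 5S RNA and tRNA, 12 were marked, Polr3g and Polr3k in 3. Of 15 genes of mTOR signalling and TOP control 7 were marked and none in 3 libraries. Mtor and Rheb were marked in control-GFP 1 and knockout-GFP 2. Eif4ebp2 and Rps6kb1, which encode a translation repressor and an S6 kinase under mTOR complex 1, were marked in both knockout-GFP libraries alone. A mark in both knockout-GFP and neither control-GFP library was held by 1.04% of all genes. Control-GFP 2 marked only 2.0% of all genes, so the pattern of these genes rests largely on control-GFP 1. Rictor and Rptor, which define mTOR complexes 2 and 1, had no mark. A peak list at gene ends does not check the deletion of Rictor, since no label states which segment is deleted.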

How the data were processed

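ATAC-seq peak lists of 6 islet libraries were used, 1 per library. Per the submitters' processing notes, the tools were BWA 0.7.10, MACS2 2.1.1, SAMtools, Trimmomatic and FastQC, with no settings given. Each deposited list gives chromosome, start, end, name and score; the score, set by the authors' peak caller, was read as −log10 of a q-value because its lowest value lies at 1.3 or just above in each list, and no header states it. The notes name human builds, and coordinates were treated as mouse GRCm38 and are given 1-based. Read depth is not stated. Gene ends came from a RefSeq table of GRCm38.p6 and promoters from a RefSeq table. A peak had to overlap a window of 1000 bp around a gene end by at least 1 bp. Python 3.11.15, pandas 2.3.3 and SciPy 1.17.1 were used; the overlap code was tested on simulated data. Intervals are exact at 95%. Named genes were those marked in at least 4 libraries, those marked throughout one group and nowhere in another, the 10 highest mean percentiles among genes marked in at least 2 libraries, the stalk genes, Rpsa, the copies, and, per other list, up to 4 genes marked in the most libraries; others were named after their values were seen. Members and lists were chosen with earlier results of these data known. Alternatives are in the closing section, and the list without copies and Rps19bp1, the restriction to genes with a promoter entry and the wider TOP search were chosen after seeing the data. No test was made, because a p-value over genes would not replace replicates. Some genes are not reported by name here.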

Additional observations from a re-analysis of the deposited data

How the results depend on the processing

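Of the values recomputed under other settings or by leaving out a library, 136 stayed within the range set for no change and 24 moved. Many of those that stayed were 0 at the main setting, where a stricter setting cannot lower them. The range also took in the large minus small difference of control-GFP 1, which went from -4.29 to 1.43 points with starts of transcription only. The tally is therefore not a measure of stability. In the better 50% of each list the number of marked ribosomal protein genes fell from 21, 14 and 30 to 5, 6 and 14. These counts are for control-GFP 1, knockout-GFP 1 and knockout-GFP 2, beside 9.41%, 4.5% and 9.19% of all protein-coding genes. In control-GFP 1 the share of ribosomal protein genes, 5 of 91, was then below that of all genes. The large minus small difference was -5, -12.5 and -12.1 percentage points. With every list shortened to its best 525 peaks the counts were 0, 3 and 0, beside 1.91%, 1.9% and 1.92% of all genes. The differences were then 0, -8.57 and 0 points. Both knockout-GFP patterns held 0 genes, beside 0.251% and 0.475% of all genes, and fewer peaks enter by construction. In the better 50% the pattern of both knockout-GFP and neither knockout-Acsl4 libraries held 3, beside 2.97% of all genes. A window of 3000 bp gave knockout-Acsl4 2 a count of 1, Rps29, beside 3.13% of all genes. A pyrimidine run within 10 bases of the start was found in 40 promoters in place of 14.

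Leaving out 1 library gave 1 to 15 genes for both knockout-GFP and neither control-GFP, and 0 to 5 for the reverse. The 15 came without knockout-GFP 1, beside 5.54% of all genes, and the 5 without control-GFP 2, beside 4.4%. For both knockout-GFP and neither knockout-Acsl4 the range was 8 to 30. The 8 came without 1 of the knockout-Acsl4 libraries, beside 6.39% and 5.98% of all genes. Without knockout-GFP 1 the count was 30, beside 15.9%, and without knockout-GFP 2 it was 14, beside 7.31%. For both control-GFP and neither knockout-Acsl4 the range was 0 to 21, with 21 without control-GFP 2, beside 15.3%. No paired analysis was possible because the results come from no test, and pairing libraries by number gives the same counts. The short lists and unknown read depth limit every count: a gene without a peak is not shown to be closed.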
